A study of Mus musculus with 6 samples.

Results

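The chemokine and chemokine receptor genes are 53 of the 34741 genes named on the array, 34 ligands and 19 receptors. They are the probes whose gene name on the array is Ccl, Cxcl, Ccr or Cxcr followed by a digit, or is Cx3cl1 or Cx3cr1, leaving out Ccrl and Ccrn names. These 69 probes were reduced to 1 probe per gene, the brightest. The names carry the label: every member is a chemokine ligand, a chemokine receptor or, for Cxcr7, an atypical receptor now called Ackr3.

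RNA came from whole testes of 3 B6.MRLc1-(D1Mit202–D1Mit403) males and 3 C57BL/6 (B6) males, all 3 months old and all taken 10 days after 1 scrotal exposure to 43 °C for 20 min. B6.MRLc1-(D1Mit202–D1Mit403), written B6.MRLc1 here, is a congenic strain: its chromosome 1 comes from MRL mice between 67.97 and 81.63 cM, on a C57BL/6 background. Each sample was hybridised to its own one-colour Agilent array, taken as 1 mouse from the design text's 3 mice per strain. The study's stated subject is calcification in the testis after heat. Every comparison is between heated testes of both strains, since every array of the series is of heated testis.

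Chemokines are small secreted proteins that direct the movement of leukocytes through receptors coupled to inhibitory G proteins. CC ligands such as Ccl2 mostly draw monocytes, macrophages, T cells and eosinophils, CXC ligands with an ELR motif such as Cxcl1 draw neutrophils through Cxcr2, and the ligands of Cxcr3 draw activated T and NK cells. Testis holds many resident macrophages outside the seminiferous tubules, and fractalkine (Cx3cl1) and Cxcl12 are made in many tissues without inflammation. In RNA of a whole organ, fewer cells of a type and less RNA per cell cannot be told apart.

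Promoter sequence was matched to 38 of the 53 members in a RefSeq table of build GRCm38.p6. The stretches below are shown because Cxcl1 is the measured member of the neutrophil ligand cluster, Cxcl2 and Cxcl3 are its neighbours that were not above background, and Cxcl10 is a member that NF-kB and interferon factors are both known to control. Each runs 5′ to 3′ and ends at the base before the annotated start of the gene. Capitals mark matches, on either strand, to GGG, any 3 bases and TTCC (a form of the NF-kB motif) or to GAAA, any 2 bases and GAAA (the core of an interferon-stimulated response element, ISRE).
Cxcl1, chr5:90891125-90891244, plus strand: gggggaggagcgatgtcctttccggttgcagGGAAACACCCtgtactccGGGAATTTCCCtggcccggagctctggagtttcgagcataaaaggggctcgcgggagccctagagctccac
Cxcl2, chr5:90903779-90903898, plus strand: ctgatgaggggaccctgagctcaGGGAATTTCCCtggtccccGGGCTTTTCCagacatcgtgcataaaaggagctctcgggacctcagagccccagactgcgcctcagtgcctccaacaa
Cxcl3, chr5:90785981-90786100, plus strand: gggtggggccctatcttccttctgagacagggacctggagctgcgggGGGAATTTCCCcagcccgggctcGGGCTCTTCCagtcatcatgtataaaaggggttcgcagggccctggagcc
Cxcl10, chr5:92348890-92349139, minus strand: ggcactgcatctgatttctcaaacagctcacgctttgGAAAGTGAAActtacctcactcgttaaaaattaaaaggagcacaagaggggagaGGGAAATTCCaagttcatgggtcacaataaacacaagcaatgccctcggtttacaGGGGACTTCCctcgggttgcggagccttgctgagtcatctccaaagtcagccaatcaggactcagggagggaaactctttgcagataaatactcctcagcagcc

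The same letters, GGGAATTTCC, stood 71 bases before the start of Cxcl1, 97 before that of Cxcl2 and 73 before that of Cxcl3, where the reverse strand matched the motif again 1 base further on. In Cxcl10 the ISRE core GAAAGTGAAA stood 213 bases before the start, and NF-kB matches stood at 159 (GGGAAATTCC) and 104 bases (GGGGACTTCC). Over the 42 windows of 300 bases that belong to members, 9 (21.4%) held the NF-kB letters, against 5.56% of all 32851 windows. The ISRE core was in 3 of the member windows (7.14%), against 3.44% of all windows. Of the members with the NF-kB letters, Ccl1, Ccl20, Ccr3, Ccr6, Cxcl2 and Cxcl3 were too dim to be tested between strains. Ccl2, Ccl5, Ccl7 and Cxcl5 had no matched window. A match describes these letters only.

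Probe positions below are those of build mm9, per the file headers. Levels are log2 of the processed intensity divided by the array's own 75th percentile. A value of 0 is a signal equal to that percentile, and a difference of 1 between the same probe's values on 2 arrays is a doubling. Of the 53 members, 34 were tested (23 ligands and 11 receptors), since 3 or more of the 6 arrays showed most of the gene's spots well above background. 29 members were above background on all 6 arrays and 14 on none. All differences are B6.MRLc1 minus B6 with the standard error (SE) of a limma fit over 25097 genes, and the adjusted p is Benjamini-Hochberg's over all of them.

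The 6 arrays shared 1 slide and 1 scan, with the B6.MRLc1 arrays in slide row 2 and the B6 arrays in row 1, so strain and slide row cannot be told apart. On the B6.MRLc1 arrays 58.0 to 64.7% of spots were well above background and on the B6 arrays 68.6 to 69.0%, and no spot was saturated. A dim member could thus pass as above background more easily on the B6 arrays. All 9 Sertoli cell markers and all 6 Leydig cell markers were above background on all 6 arrays, as the label testis requires.

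No member passed the test, where 2.61% of all genes did: 0.387% as higher and 2.23% as lower in B6.MRLc1, at an adjusted p under 0.05. The smallest adjusted p of a member was 0.0658, for Ccr8. Other models moved calls, of members and of genes in general. Limma's array weights called Cxcl1, Cxcl5 and Ccr8 as lower, 3 of 34 members, against 1598 of 25097 genes. A variance trend called Cxcl1 alone among the 34 members, against 1187 of 25097 genes. Without adjustment, 7 of the 34 members had p under 0.05, against 20% of all genes, which is close to the members' share; 3 of them were higher, against 8.77% of genes, and 4 lower, against 11.3%. In 4 members (Ccr8, Cxcl1, Cxcl5 and Ccl8) all B6.MRLc1 arrays lay below all B6 arrays, against 14.2% of all genes; Cxcl5 entered the test through the B6 arrays alone, where it is high. In 3 members (Cxcl9, Cxcr7 and Cx3cr1) all B6.MRLc1 arrays lay above all B6 arrays, against 14.3% of all genes. The median difference was -0.12 over the members and 0.014 over all genes, and 21 of the 34 members lay below 0, against 46.9% of all genes. For a single gene, the smallest p that an exact two-sided permutation of 3 against 3 arrays can give is 0.1.

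**Figure D1:**
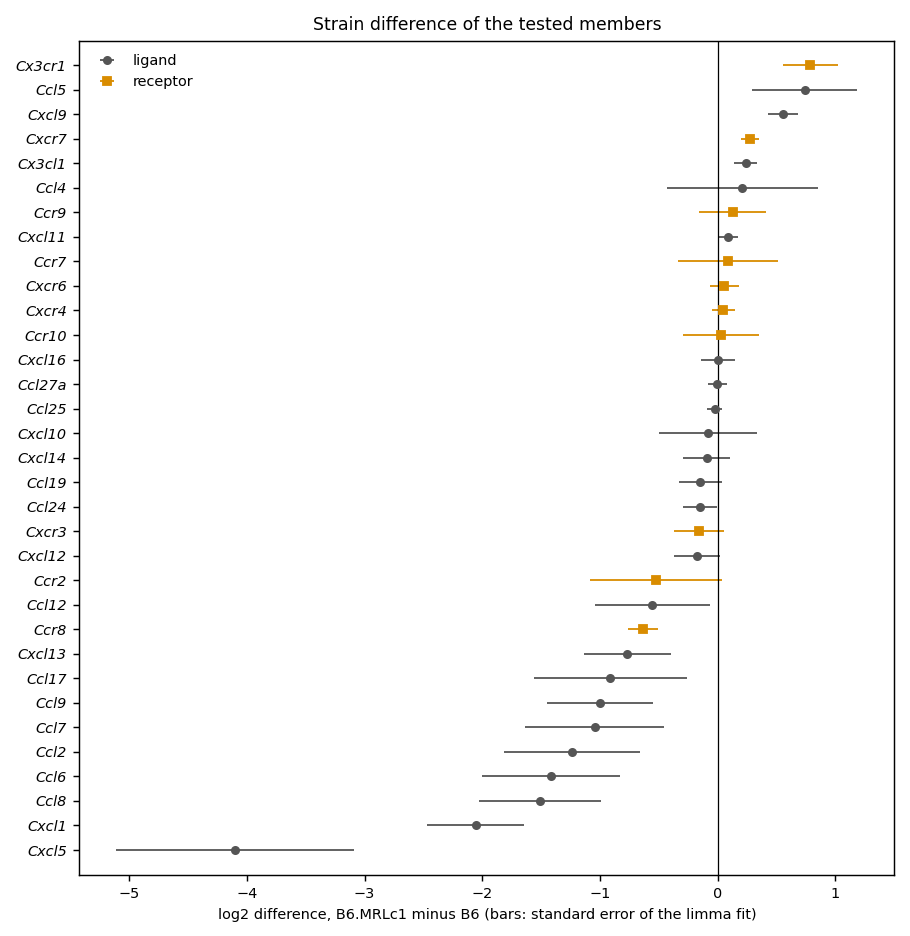
Log2 difference, B6.MRLc1 minus B6, for the tested members reported here (y axis, genes sorted by difference), with the standard error of the limma fit as bars, circles for ligands and squares for receptors. Cxcl5 (-4.10), Cxcl1 (-2.06) and a group of CC ligands lie furthest below 0, Cx3cr1 (0.79) and Ccl5 (0.74) furthest above, and no member shown passed the test.

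The neutrophil ligands with an ELR motif gave the members' 2 most negative differences. Cxcl1, which signals through Cxcr2, was measured at mm9 chr5:91321845-91321904 and stood at -3.46, -3.44 and -3.44 on B6.MRLc1 arrays 1, 2 and 3, against -0.58, -1.31 and -2.28 on B6 arrays 1, 2 and 3. The 3 B6.MRLc1 values nearly coincided and lay below every B6 value, while the B6 values were spread over 1.70 log2 units. The difference was -2.06 (SE 0.41; n = 3 arrays per strain; limma adjusted p = 0.0665), or -1.36 with normexp background correction, which draws dim values together.

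Cxcl5, another Cxcr2 ligand, was measured at chr5:91190490-91190549 in the same cluster. It stood at -6.56, -6.04 and -5.69 on B6.MRLc1 arrays 1, 2 and 3, all not well above background, against 0.17, -2.25 and -3.92 on B6 arrays 1, 2 and 3, all above it. On this signal scale the B6 mean of Cxcl5 was at least 7.67-fold higher. For this bound each B6.MRLc1 array took the lowest signal it still showed well above background, or the probe's value where that was higher. The bound depends on the background treatment and on the B6 arrays included, and is no minimum for the strains. The fitted difference of -4.10 (SE 1.01; limma adjusted p = 0.106) is no bound and rests on dim B6.MRLc1 values, and normexp gave -1.66. Without B6 array 1 the bound was 3.62-fold and the fitted difference -3.01, and without B6 array 3 the bound was 14.9-fold. Between the B6 arrays themselves Cxcl5 differed by over 4 log2 units, with array 1 highest and array 3 lowest.

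The other 3 ELR ligands were not tested. Cxcl2 and Cxcl3, whose promoters share the letters shown above with Cxcl1, were above background on no array. Cxcl15 was above background on 1 B6.MRLc1 array and on no B6 array. The receptors of these ligands, Cxcr1 and Cxcr2, were above background on no array either, so the data give a level for ligands of this group and none for its receptors.

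Of the neutrophil markers, Camp, which encodes the antimicrobial peptide cathelicidin, passed the test as lower in B6.MRLc1: it stood at -2.54, -2.96 and -2.82 on B6.MRLc1 arrays 1, 2 and 3 and at -1.38, -1.64 and -2.0 on B6 arrays 1, 2 and 3 (difference -1.10, limma adjusted p = 0.0489). The surface marker Ly6g gave -1.68 (limma adjusted p = 0.0934). Of 9 neutrophil markers 5 were tested, 1 of them was called, 4 of the 5 differences were below 0, and, over all genes, 2.23% were called lower and 46.9% of differences were below 0. Ngp was above background on no array. The summed linear level of the list was 147, 126 and 143 on the B6.MRLc1 arrays and 115, 131 and 144 on the B6 arrays. Almost all of that sum was Csf3r, and without it the sums were 1.21, 1.16 and 1.09 on the B6.MRLc1 arrays and 2.32, 1.61 and 1.28 on the B6 arrays. The part of neutrophil content in the values of Cxcl1 and Cxcl5 was not tested.

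The CC ligands induced in inflammation formed the largest group, 16 members of which 10 were tested. None was called, 8 of the 10 differences were below 0, and their median was -0.96. Their common feature was the spread between B6 arrays: the median range over 3 arrays was 0.42 log2 units in B6.MRLc1 and 2.14 in B6, B6 array 1 was the highest B6 array for 7 of the 10, and B6 array 3 the lowest for 9.

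Ccl8, which in mouse acts on Ccr8, was measured at chr11:81930108-81930167 and stood at 1.77, 2.24 and 2.17 on B6.MRLc1 arrays 1, 2 and 3, against 4.59, 3.61 and 2.5 on B6 arrays 1, 2 and 3. It was the one tested gene of this group whose strains did not overlap, although B6 array 3 lay closer to the B6.MRLc1 arrays than to B6 array 1. Its mean was 2.06 ± 0.25 in B6.MRLc1 and its B6 mean 3.57 ± 1.04 (SD, n = 3 each), a difference of -1.51 (SE 0.52; limma adjusted p = 0.191).

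Ccl2, the main monocyte attractant through Ccr2, lies in the same cluster at chr11:81850650-81850709. Its level was -1.63, -1.40 and -1.77 on B6.MRLc1 arrays 1, 2 and 3, against 0.51, 0.12 and -1.71 on B6 arrays 1, 2 and 3 (difference -1.24, SE 0.58; limma adjusted p = 0.304). B6 arrays 1 and 2 lay above every B6.MRLc1 array, while B6 array 3 lay among them. Ccl7, a further Ccr2 ligand from this cluster, stood at -2.45, -2.12 and -2.85 on the B6.MRLc1 arrays and at -0.58, -0.93 and -2.77 on the B6 arrays (difference -1.05, SE 0.59; limma adjusted p = 0.383), again with B6 array 3 inside the B6.MRLc1 range. Ccl12, the fourth tested gene of the cluster, measured -0.23, -0.50 and -0.40 on the B6.MRLc1 arrays and 0.97, 0.52 and -0.95 on the B6 arrays, so that here B6 array 3 lay below every B6.MRLc1 array. In all 4 tested genes of this cluster (chr11:81850650-81990510), B6 array 1 was the highest B6 array and B6 array 3 the lowest; its other members Ccl1 and Ccl11 were above background on no array.

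A second cluster (chr11:83339296-83478111) holds Ccl6 and Ccl9, rodent ligands of Ccr1. Ccl6 stood at -1.10, -1.21 and -0.73 on B6.MRLc1 arrays 1, 2 and 3, against 1.54, 0.49 and -0.83 on B6 arrays 1, 2 and 3 (difference -1.41, SE 0.59; limma adjusted p = 0.259). Ccl9 stood at -1.80, -1.57 and -1.44 on the B6.MRLc1 arrays and at 0.21, -0.42 and -1.59 on the B6 arrays (difference -1.0, SE 0.45; limma adjusted p = 0.286). For both genes the first and the second B6 array exceeded all B6.MRLc1 arrays and the third lay inside their range. Ccl5, a T cell and monocyte attractant from this cluster, had a difference of the other sign, with -1.15, -0.12 and -1.02 on the B6.MRLc1 arrays and -1.46, -0.79 and -2.26 on the B6 arrays (difference 0.74; limma adjusted p = 0.407), and the strains overlapped. Ccl4 gave 0.21 (limma adjusted p = 0.879) and was above background on 1 B6.MRLc1 and 2 B6 arrays, and Ccl3 was above background on 1 B6 array alone.

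Ccl17, a ligand of Ccr4, a chemokine receptor of T cells, had the widest range over the B6 arrays among the 29 members above background throughout. It stood at -2.74, -2.55 and -2.68 on the B6.MRLc1 arrays, against -1.36, -0.63 and -3.24 on the B6 arrays (chr8:97335770-97335829; difference -0.91, SE 0.65; limma adjusted p = 0.478). B6 array 3 was the lowest of all 6 arrays. Ccl24, an eosinophil attractant, gave -0.15 (limma adjusted p = 0.591) and is the one tested gene of the group for which B6 array 3 was not the lowest B6 array. Ccl20, Ccl22 and Ccl26, with Ccl1 and Ccl11, were above background on no array.

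**Figure D2:**
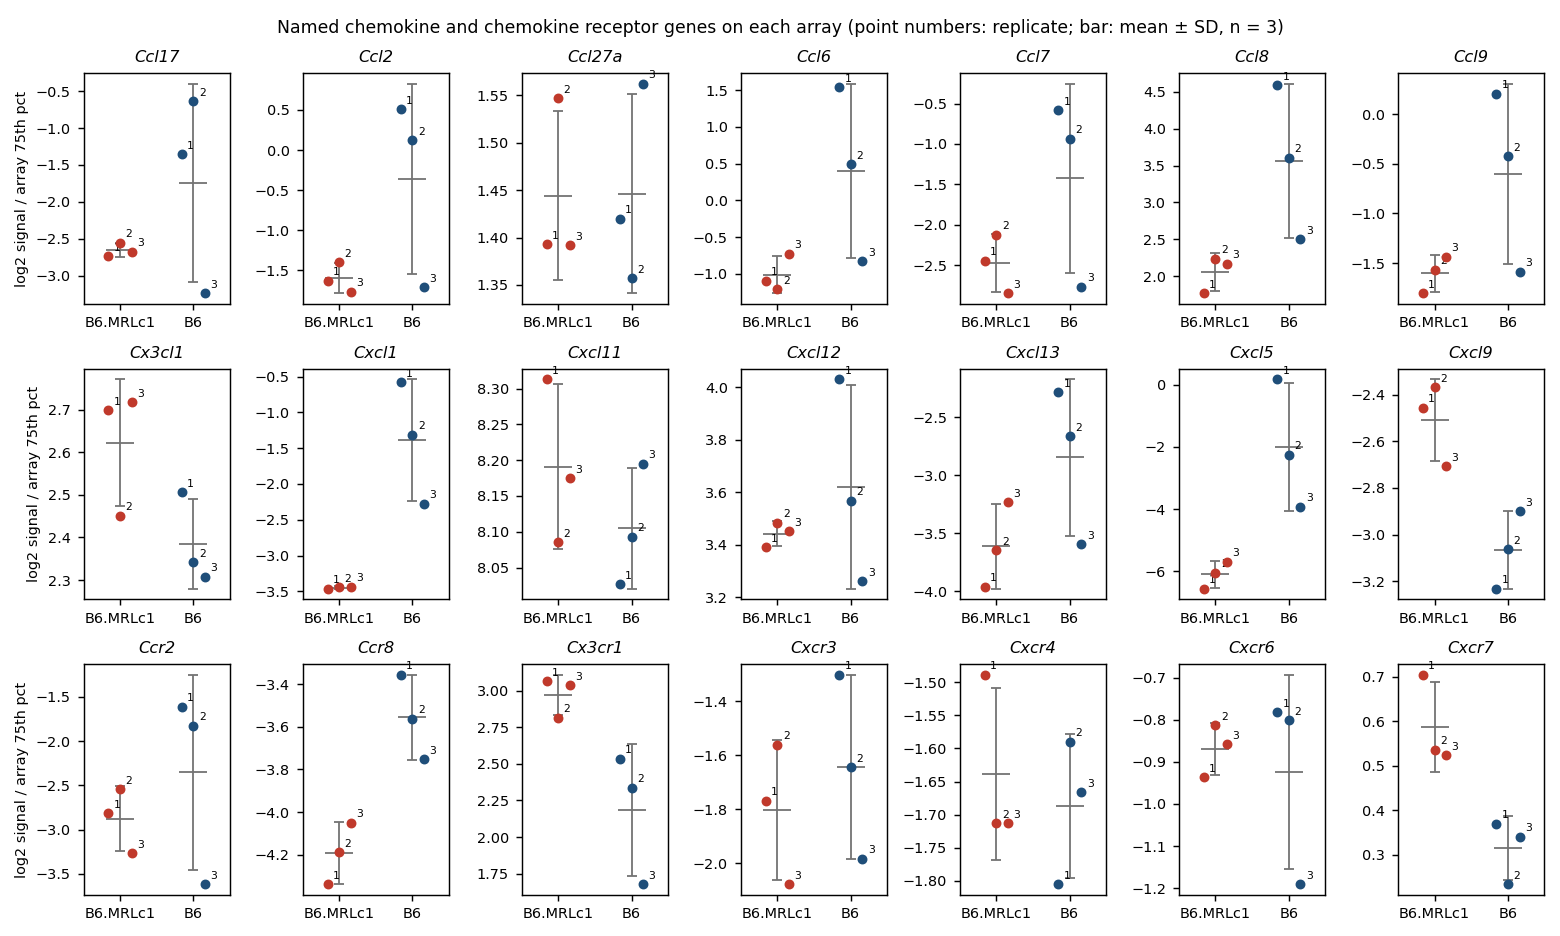
Log2 signal over the array's 75th percentile on each array for the 21 named members, ligands first and then receptors, B6.MRLc1 left and B6 right in each panel, with replicate numbers beside the points, bars for the mean ± SD (n = 3) and a y scale of its own in each panel. In Ccl2, Ccl6, Ccl7 and Ccl9 the B6 points numbered 1 and 2 lie above the B6.MRLc1 points and the point numbered 3 lies among them, while the B6.MRLc1 points of Cxcl1 nearly coincide.

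Of 4 CC ligands of lymphoid organs and epithelia 3 were tested, with a median difference of -0.026. Ccl27a, a skin and epithelial ligand of Ccr10, stood at 1.39, 1.55 and 1.39 on B6.MRLc1 arrays 1, 2 and 3 and at 1.42, 1.36 and 1.56 on B6 arrays 1, 2 and 3, and its 2 other probes gave -0.15, with overlap, and -0.38, with all B6.MRLc1 arrays below all B6 arrays. Near-identical copies of Ccl27a exist in the mouse genome, so its signal cannot be assigned to 1 copy. Ccl19, a Ccr7 ligand that guides T cells in lymph nodes, gave -0.15 (limma adjusted p = 0.685) with a range of 0.65 log2 units over the B6 arrays, Ccl25, a Ccr9 ligand of thymus and gut, gave -0.026 (limma adjusted p = 0.848), and Ccl28 was above background on no array.

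The 3 Cxcr3 ligands, which interferon is known to induce, differed among themselves. Cxcl9 (chr5:92752796-92752855) stood at -2.46, -2.37 and -2.71 on B6.MRLc1 arrays 1, 2 and 3, against -3.23, -3.06 and -2.90 on B6 arrays 1, 2 and 3 (difference 0.55, SE 0.13; limma adjusted p = 0.089). Every B6.MRLc1 array lay above every B6 array with this probe. A dimmer second Cxcl9 probe gave 1.06, but on it the strains overlapped. Cxcl10, whose promoter is printed above, stood at -2.44, -1.36 and -2.15 on the B6.MRLc1 arrays and at -1.30, -1.79 and -2.60 on the B6 arrays, with a difference of -0.082 (limma adjusted p = 0.928). As in most of the tested inflammatory CC ligands, B6 array 1 was the highest and B6 array 3 the lowest B6 array for Cxcl10. Cxcl11 stood at 8.31, 8.09 and 8.18 on the B6.MRLc1 arrays and at 8.03, 8.09 and 8.20 on the B6 arrays (difference 0.086; limma adjusted p = 0.596), and its second probe gave 0.24. That second probe had means of 3.36 in B6.MRLc1 and 3.12 in B6, so the level of Cxcl11 depended on the probe. The RefSeq table lists Cxcl11 of C57BL/6J as a transcribed pseudogene. Its signals are therefore reported per probe, and whether they are RNA of the locus was not tested.

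Among the other CXC and CX3C ligands, 5 of 6 were tested and none was called. Cx3cl1, the membrane-bound ligand of Cx3cr1, stood at 2.70, 2.45 and 2.72 on B6.MRLc1 arrays 1, 2 and 3, against 2.51, 2.34 and 2.31 on B6 arrays 1, 2 and 3 (difference 0.24, SE 0.099; limma adjusted p = 0.262), with 1 B6.MRLc1 array inside the B6 range. Cxcl12, the ligand of Cxcr4 and Cxcr7, stood at 3.39, 3.48 and 3.45 on the B6.MRLc1 arrays and at 4.03, 3.57 and 3.26 on the B6 arrays (difference -0.18; limma adjusted p = 0.639). Cxcl13, which draws B cells through Cxcr5, stood at -3.96, -3.65 and -3.23 on the B6.MRLc1 arrays and at -2.28, -2.66 and -3.59 on the B6 arrays (difference -0.77, SE 0.37; limma adjusted p = 0.318), where B6 array 3 overlapped the other strain. Cxcl14 gave -0.094 and Cxcl16, the ligand of Cxcr6, gave 0.0058, and Cxcl17 was above background on 1 B6 array only.

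Of 11 CC receptors 6 were tested. Ccr8, found on regulatory and Th2 T cells, stood at -4.34, -4.19 and -4.05 on B6.MRLc1 arrays 1, 2 and 3, against -3.36, -3.56 and -3.75 on B6 arrays 1, 2 and 3 (chr9:120003941-120004000; difference -0.64, SE 0.13; limma adjusted p = 0.0658). The strains did not overlap, but the gene was dim: it was above background on 2 of the 3 B6.MRLc1 arrays, normexp gave -0.12, and the other Ccr8 probe, never above background, gave 0.77. Ccr2, the receptor of Ccl2 and Ccl7 on monocytes, stood at -2.82, -2.55 and -3.27 on the B6.MRLc1 arrays and at -1.61, -1.83 and -3.62 on the B6 arrays (difference -0.52, SE 0.56; limma adjusted p = 0.633). As with its ligands, B6 arrays 1 and 2 lay above every B6.MRLc1 array, and B6 array 3 was the lowest of all 6. Ccr7, the lymph node homing receptor, gave 0.084, Ccr9 0.13 and Ccr10 0.029. Ccr6 and Ccr3 were above background on 2 B6 arrays and on no B6.MRLc1 array, and were not tested. Ccr6 stood at -6.61, -5.10 and -5.84 on the B6.MRLc1 arrays and at -3.10, -3.81 and -5.70 on the B6 arrays, so the strains overlapped. Ccr1, Ccr1l1 and Ccr4 were above background on no array.

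Of 8 CXC and CX3C receptors 5 were tested, and 2 of them had all B6.MRLc1 arrays above all B6 arrays, against 14.3% of all genes. Cx3cr1, the fractalkine receptor of monocytes and resident macrophages, stood at 3.06, 2.81 and 3.04 on B6.MRLc1 arrays 1, 2 and 3, against 2.54, 2.34 and 1.68 on B6 arrays 1, 2 and 3 (chr9:119957811-119957870; difference 0.79, SE 0.23; limma adjusted p = 0.145). A second Cx3cr1 probe gave 0.59, also without overlap. B6 array 3 was the lowest here too, so that the array with the lowest CC ligands was the one furthest from B6.MRLc1 for Cx3cr1. Cxcr7, the scavenger receptor of Cxcl12, stood at 0.70, 0.54 and 0.52 on the B6.MRLc1 arrays and at 0.37, 0.23 and 0.34 on the B6 arrays (chr1:92111803-92111862; difference 0.27, SE 0.076; limma adjusted p = 0.132).

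The remaining 3 tested receptors overlapped between strains and differed little. Cxcr4, the signalling receptor of Cxcl12, stood at -1.49, -1.71 and -1.71 on the B6.MRLc1 arrays and at -1.81, -1.59 and -1.67 on the B6 arrays (difference 0.049, SE 0.094). Cxcr3 stood at -1.77, -1.56 and -2.08 on the B6.MRLc1 arrays and at -1.30, -1.64 and -1.98 on the B6 arrays (difference -0.16; limma adjusted p = 0.706). Cxcr6 stood at -0.94, -0.81 and -0.86 on the B6.MRLc1 arrays and at -0.78, -0.80 and -1.19 on the B6 arrays (difference 0.055; limma adjusted p = 0.833). Cxcr5, Cxcr1 and Cxcr2 were above background on no array. The members on chromosome 1 are Cxcr1, Cxcr2, Ccl20, Cxcr7 and Cxcr4; the labels give the MRL segment in cM only, so these positions in bases were not placed against it.

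Members varied more between B6 arrays than between B6.MRLc1 arrays. Over the 29 members above background on all 6 arrays, the median range over 3 arrays was 0.28 log2 units in B6.MRLc1 and 0.86 in B6, against 0.16 and 0.19 over all genes above background throughout. The B6 range was the wider one in 23 of the 29, against 56.4% of those genes. B6 array 1 was the highest B6 array for 20 of the 29, against 33% of genes, and B6 array 3 the lowest for 22, against 31% of genes. No test was made of these counts, since members on the same arrays are not independent.

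Single members show how far this went. The B6 range was 2.61 log2 units for Ccl17, 2.38 for Ccl6, 2.22 for Ccl2 and 2.19 for Ccl7, each wider than in 99.9% of all genes above background throughout. Ccl8 (2.09), Ccr2 (2.01) and Ccl12 (1.93) exceeded 99.8% of genes. For Cxcl1 the B6 range of 1.70 exceeded 99.7% of genes, whereas its B6.MRLc1 range of 0.029 exceeded 2.68% of genes. At the other end, the B6 range was 0.14 for Cxcr7, 0.17 for Cxcl11, 0.18 for Ccl25, 0.20 for Cx3cl1 and for Ccl27a, and 0.22 for Cxcr4.

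**Figure D3:**
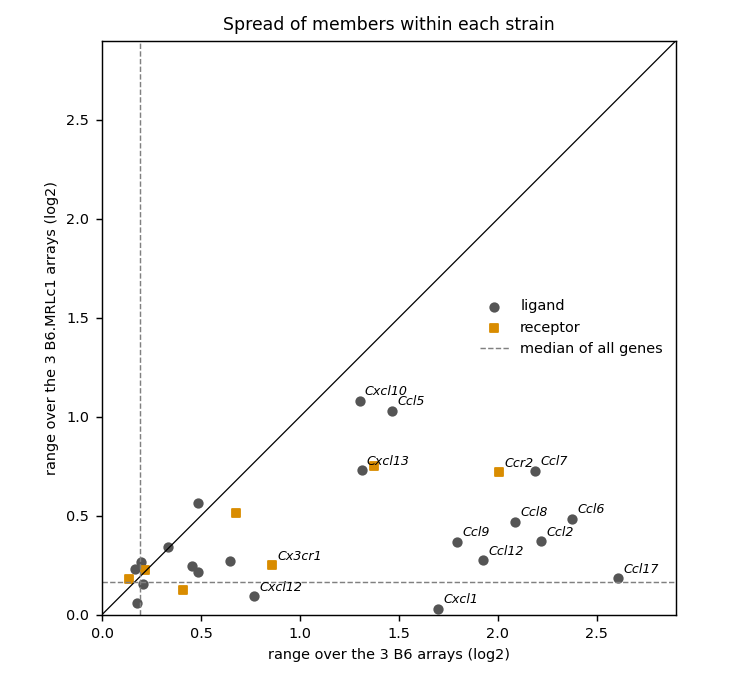
Range over the 3 B6 arrays (x axis, log2) against the range over the 3 B6.MRLc1 arrays (y axis, log2) for the members reported here that were above background on all 6 arrays, circles for ligands and squares for receptors, with a line of equal range and dashed lines at the medians of all genes (0.19 in B6 and 0.16 in B6.MRLc1). Most members lie on the B6 side of the line, and Ccl17, Ccl6, Ccl2, Ccl7, Ccl8, Ccr2, Ccl12, Ccl9 and Cxcl1 lie furthest along the x axis.

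As a median over members of the level minus the gene's mean over the 6 arrays, the 34 tested members stood at -0.13, -0.038 and -0.17 on B6.MRLc1 arrays 1, 2 and 3 and at 0.43, 0.30 and -0.31 on B6 arrays 1, 2 and 3. The 10 inflammatory CC ligands stood at -0.52, -0.38 and -0.38 on the B6.MRLc1 arrays and at 1.19, 0.74 and -0.77 on the B6 arrays. The B6.MRLc1 arrays thus lay between B6 array 2 and B6 array 3 in both medians. Receptors stood at -0.20, 0.085 and -0.050 on the B6.MRLc1 arrays and at 0.37, 0.097 and -0.29 on the B6 arrays.

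**Figure D4:**
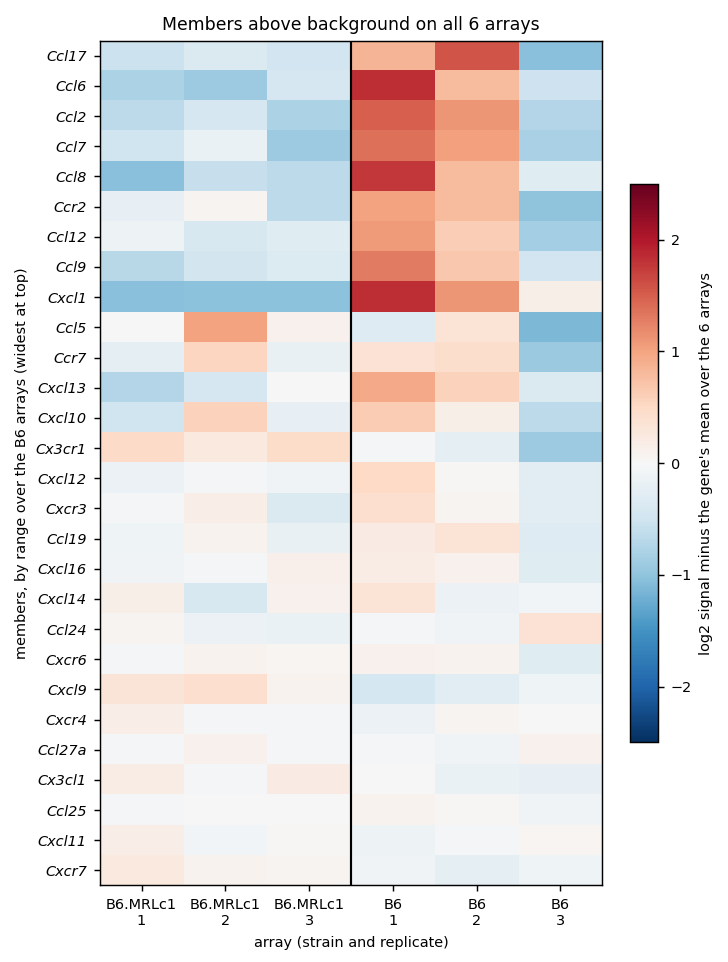
Level on each array (columns, B6.MRLc1 1 to 3 and then B6 1 to 3) minus the gene's mean over the 6 arrays (colour, log2, red above and blue below the mean) for the members reported here that were above background on all 6 arrays (rows, widest B6 range at the top). The upper rows are red on B6 arrays 1 and 2 and blue on B6 array 3, with the B6.MRLc1 arrays pale to blue, and the lower rows are pale throughout.

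Markers of other cell types differed between the same arrays. The 11 macrophage and monocyte markers summed to 92.1, 81.2 and 84.4 on B6.MRLc1 arrays 1, 2 and 3 and to 123, 99.7 and 86.6 on B6 arrays 1, 2 and 3. None of the 11 was called, 10 of their differences were below 0, and their median was -0.27. All of the 11 but Itgam had a wider range in B6 than in B6.MRLc1. The range was widest for Cd14, 1.38 log2 units in B6 and 0.28 in B6.MRLc1. A wide B6 range was thus not particular to the chemokine genes. The 5 general leukocyte markers summed to 7.67, 11.9 and 8.31 on the B6.MRLc1 arrays and to 13.6, 13.1 and 7.38 on the B6 arrays, with B6 array 3 lowest. The sums of the T and NK cell markers were 4.76, 4.50 and 4.33 on the B6.MRLc1 arrays and 4.64, 4.44 and 4.17 on the B6 arrays. Without Cd4, the brightest, they were 2.07, 2.24 and 2.03 on the B6.MRLc1 arrays and 2.3, 2.28 and 1.99 on the B6 arrays. Such sums weigh the brightest marker most, Cd52 among the general leukocyte markers and Cfd among the adipocyte markers. Klrb1c and Ncr1 were above background on no array. The 6 spermatid markers summed to 2.29, 1.68 and 5.38 on the B6.MRLc1 arrays and to 40.5, 19.7 and 12.5 on the B6 arrays, so B6 array 1 was highest and B6 array 3 lowest of B6 for these germ cell genes as well. Adipocyte markers summed to 6.28, 12.6 and 8.69 on the B6.MRLc1 arrays and to 3.49, 5.22 and 5.75 on the B6 arrays, and of 6 epididymis markers 5 were above background on no array. The part of these cell types in the members' values was not tested.

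Leaving out B6 array 3 changed calls. Without it, Cxcl1 (-2.5; limma adjusted p = 0.0304), Ccl2 (-1.91; limma adjusted p = 0.0304) and Ccl17 (-1.66; limma adjusted p = 0.0498) passed as lower in B6.MRLc1, 3 of 34 members against 1.88% of all genes. All remaining B6.MRLc1 arrays then lay below all remaining B6 arrays for 18 of the 34 members, against 21.5% of all genes, and above them for 3, against 24.9%, and the median difference was -0.35. Without B6 array 1 no member was called (0.187% of all genes were), the median difference was 0.00081, and 17 of the 34 members lay below 0. No member was called without B6 array 2 (0.661% of all genes) or without B6.MRLc1 array 1, 2 or 3 (0.339, 0.227 and 1.24%). Leaving out an array leaves 2 in its strain, where groups separate more easily, as the larger share of all genes shows.

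**Figure D5:**
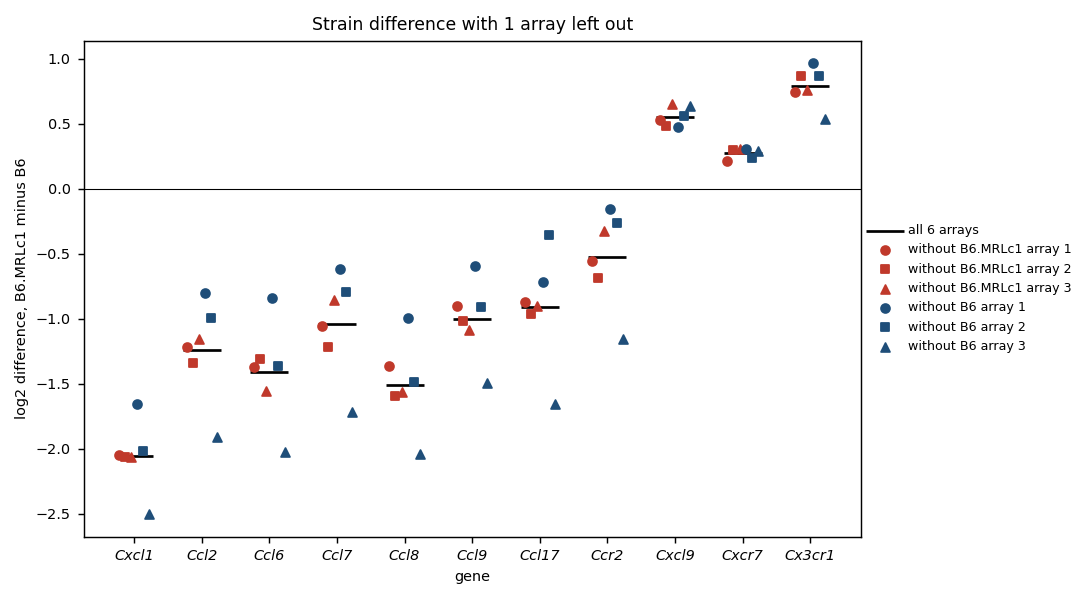
Log2 difference, B6.MRLc1 minus B6, of 11 members (x axis) with all 6 arrays (black bar) and with 1 array left out (red for a B6.MRLc1 array, blue for a B6 array, marker shape for the replicate). The CC ligands and Ccr2 move most with B6 arrays: leaving out B6 array 3 takes Ccl2 to -1.91 and Ccl17 to -1.66, and each difference shown keeps its sign.

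The other genes of the chemokine pathway were read from the same fit, where 2.61% of all genes were called. Of 8 tested genes for other chemokine ligands and atypical receptors none was called; Cmklr1, the chemerin receptor, gave -0.85 (limma adjusted p = 0.149) and Ackr2, a decoy receptor for inflammatory CC ligands, gave 0.76 (limma adjusted p = 0.21), while Xcl1, Xcr1 and Ppbp were above background on no array. Of 14 tested inducers and transcription factors, 1 passed the test: Il1a, the cytokine interleukin-1 alpha, which entered it through the B6 arrays alone. It stood at -5.18, -5.62 and -5.17 on B6.MRLc1 arrays 1, 2 and 3, none well above background. On B6 arrays 1, 2 and 3 it stood at -4.53, -4.45 and -4.47 (limma adjusted p = 0.0434). Bounded as for Cxcl5, the B6 mean was at least 1.32-fold higher on this signal scale. That bound depends on the background treatment and is no minimum for the strains. Normexp left a difference of -0.0099, so the call rests on dim values. Nfkb2, a subunit of NF-kB, gave -0.36 (limma adjusted p = 0.0682), and Il6 and Il17a were above background on no array. None of 14 receptor signalling genes was called, the 2 with the smallest p being Arrb1 (beta-arrestin, which ends receptor signalling; 0.19) and Gnb1 (a G protein beta subunit; 0.15). None of 10 adhesion genes of leukocyte entry was called either; Icam1 gave -0.91 (limma adjusted p = 0.11) and Itgb2, a subunit of its integrin receptors, gave -0.21 (limma adjusted p = 0.467).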

How the data were processed

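Per the labels' protocols, the authors labelled 0.1 µg of testis RNA with Cy3 and hybridised it to one-colour Agilent arrays. The deposited scanner tables hold linear intensity per spot, background-subtracted and spatially detrended per the file headers, and not scaled between arrays. Flags of 0 or 1 for spots well above background, saturated or outlying are also deposited, per the file headers. The headers name Feature Extraction 10.7.3.1 and the submitters' processing notes name 9.5.3. The deposited series table holds log2 values made in a way that no source used here states. Over probes filled on all 6 arrays, at least 99.9% of them matched, to 0.05, the log2 signal scaled as here after centring each probe on its median.

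Here, control and outlier spots were left out, each array's processed signal was divided by its 75th percentile (558 to 666.4 intensity units), log2 was taken and spots of a probe were averaged. Kept were probes with values on 4 or more arrays that were well above background, in over 0.5 of their spots, on 3 or more arrays, which left 36626 of 55681 probes. The brightest probe of each gene was fitted with limma 3.58.1 (lmFit, eBayes) in R 4.3.3, tested on simulated data first, and genes with an adjusted p under 0.05 over all 25097 were called. The number of arrays limits precision. Probe positions are mm9, per the file headers, and their exons were not analysed here. Gene names came from RefSeq through the array's accession where the table holds it. Promoters are RefSeq's of build GRCm38.p6. Members are given array by array under 3 rules: the 12 tested members with the smallest p, and, among members above background on all 6 arrays, the 5 highest ligands and 5 highest receptors by mean level and the 6 widest B6 ranges. Further members are given by difference or by array values chosen after they were seen. These 21 members, the lists and the tests were chosen with earlier results of these data known. Of each pathway list the 2 genes with the smallest p are named. The labels state no link between same-numbered arrays, which share a slide column per the file headers. The values of 1 member are not reported here, though counts and medians over members include it.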

Additional observations from a re-analysis of the deposited data

How the results depend on the processing

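Results were recomputed under 17 other settings. No member was called under normexp, quantile or median scaling, either filter on dim probes, a floor, the mean over probes, the deposited table or the replicate block. Array weights called 3 members and a variance trend 1. Genes called over all genes numbered 656 as reported, 53 with no filter on dim probes, 24 with the replicate block, 1598 with array weights, 1187 with a variance trend and 47 to 471 with 1 array left out. With 1 array left out, the members called numbered 0 to 3, those without overlap 3 to 4 on the higher side and 4 to 18 on the lower, the members' median difference ran from -0.35 to 0.00081, and their median B6 range from 0.35 to 0.82. No filter on dim probes gave 10 higher members without overlap, and a filter on all 6 arrays gave 2 lower ones, since the probes tested differ. Of the higher members added, Ccl1, Ccl22, Ccl26, Cxcl3, Cxcr1 and Cxcr5 were above background on no array and Cxcl15 on 1. The lowest signal still well above background was -4.49 to -5.31 on the B6.MRLc1 arrays and -5.67 to -5.76 on the B6 arrays. Its part in these counts was not tested, and no share over all genes stands beside them. The arrays were treated as unpaired. The correlations of same-numbered arrays' deviations from the strain means were -0.044, 0.17 and 0.089. Differently numbered arrays of the 2 strains gave -0.156 to 0.0692. These values do not settle whether same-numbered arrays were partly linked. The block called no member. Each block held 1 array of each strain, so it could not move the difference of a gene with values on all 6 arrays.

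Of the named members' differences under these settings, 333 kept direction and side of the threshold, 7 passed it (Cxcl1, Cxcl5 and Ccr8 with array weights, Cxcl1 with a variance trend, and Cxcl1, Ccl2 and Ccl17 without B6 array 3) and 14 changed sign. Ccl27a gave 0.012 with normexp, 0.012 with median scaling and 0.047 with array weights and changed sign without B6.MRLc1 array 1 or 3 or B6 array 3. Cxcl12 and Cxcr3 did so without B6 array 1. Cxcr4 gave -0.029 with array weights and changed sign without B6.MRLc1 array 1 or B6 array 1. Cxcr6 gave -0.025 with the mean over probes and -0.0095 with array weights, and changed sign without B6 array 3. With 1 array left out, Ccl27a ran from -0.054 to 0.055, Cxcl12 from -0.36 to 0.027, Cxcr3 from -0.33 to 0.012, Cxcr4 from -0.026 to 0.097 and Cxcr6 from -0.078 to 0.13. The cause was not tested.

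Signal over background limits Cxcl5, Ccr8 and the untested members most. With 3 arrays per strain on 1 slide, strain and slide row cannot be told apart, and a p that misses the threshold does not show that the strains have the same level.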
